A study of Mus musculus with 15 samples.

Results

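Jejunal epithelium collected 30 min after an oral peanut challenge was compared with epithelium of sensitized mice that were not challenged. The members are libraries chosen by their titles: 3 from sensitized mice 30 min after challenge and 3 from sensitized mice at 0 min, 6 of the 15 libraries in the series. All mice were of the CC027/GeniUnc strain, a Collaborative Cross inbred line. For sensitization, peanut extract was gavaged weekly, at 2 mg in each of 3 weeks and at 5 mg in week 4. The challenge was a single gavage of 12 mg of the extract. A second unchallenged group of 3 mice was given PBS in place of peanut, and 3 sensitized mice each were sampled at 60 min and at 120 min after challenge. These other groups serve only as reference levels. Neither PBS mice later challenged with peanut nor sensitized mice gavaged with vehicle alone are among the libraries analysed here. Handling, gavage and time of day therefore cannot be told apart from exposure to peanut in this comparison.

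The jejunum is lined by one layer of epithelial cells. Stem cells and their dividing daughters sit in the crypts beside Paneth cells, which secrete antimicrobial α-defensins, and the daughters mature into absorptive enterocytes as they move up the villus. Enterocytes carry the digestive enzymes of the brush border, absorb fat and nutrients and metabolise foreign compounds. In food allergy, allergen that crosses this layer meets IgE on mast cells, whose mediators act within minutes, and epithelial cells can release the alarmins Il33, Tslp and Il25.

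A 4 cm piece of jejunum, taken from 6 cm past the pylorus, was soaked for 75 min at room temperature in DTT (0.5 mM) with EDTA (2 mM), and the epithelium was shaken off. The 15 libraries held from 15661513 to 22691349 estimated counts, and both of these extremes were libraries at 30 min, while the sensitized controls held 16617941 to 19553736. All 12 epithelial marker genes were tested, and their summed level was 12273 to 14358 CPM (counts scaled to a common library size) at 30 min and 13998 to 14419 CPM in the controls, so the isolates carried their labelled epithelium. One library stands apart: 30 min replicate 1 held the stromal markers Col3a1, a collagen of connective tissue, at 58.4 CPM and Dcn, the matrix proteoglycan decorin, at 43.0 CPM, against at most 0.666 CPM for Col3a1 and 0.108 CPM for Dcn in the other 5 libraries. Control replicate 3 had the highest share of counts on mitochondrially encoded genes, 26.73%, against 16.92% to 20.56% in the other 5. The labels number the libraries but do not say more about how they were raised, so p-values measure the spread between these libraries.

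No gene passed a Benjamini-Hochberg adjusted p of 0.05 in edgeR's quasi-likelihood test of 30 min against the sensitized controls (0 of 14968 genes tested, 0%), and the lowest adjusted p was 0.876. At an unadjusted p under 0.05 there were 755 genes, where a flat distribution of p-values would give 748. Of these, 407 were higher at 30 min (2.72% of all genes tested) and 348 were lower (2.32%). The median log2 fold change over all genes was 0.01, and 51.2% of genes were higher. In 972 genes all 3 libraries at 30 min lay above all 3 controls (6.49%), and in 1173 genes all 3 lay below (7.84%). This last split depends on the scaling of the libraries. With library totals and no TMM factor the median of all genes moved up by 0.10 on the log2 scale, and 1488 genes lay above and 372 below. The first principal component of all genes, 21.47% of the variance, gave scores of -42.38, 28.78 and -20.3 at 30 min and 5.636, 8.769 and -42.43 in the controls, so the groups overlapped on it.

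**Figure D1:**
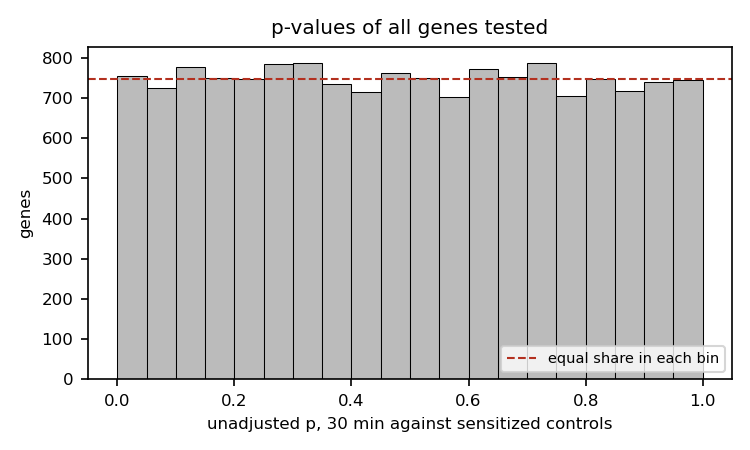
Number of genes (vertical axis) in each step of 0.05 of unadjusted p (horizontal axis) from edgeR's quasi-likelihood test of 30 min against sensitized controls. The lowest step holds 755 genes and the next one 725, against 748 for a flat distribution.

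The genes of mitosis were all higher at 30 min than in the sensitized controls. All 32 genes of the list were tested, and 32 had a positive log2 fold change, from 0.48 to 1.06 with a median of 0.64 beside 0.01 over all genes. None passed the adjusted threshold. In these bulk isolates, fewer cells of a type and less RNA per cell cannot be told apart, here and in every list that follows. At an unadjusted p under 0.05, 30 of 32 were higher and 0 lower, beside the 2.72% of all genes that were higher. In 29 of 32 the 3 libraries at 30 min lay above the 3 controls, beside 6.49% of all genes. With 30 min replicate 1 left out the median was 0.67 and 26 genes had p under 0.05. Leaving out 30 min replicate 2 gave 0.54 and 19 genes, and leaving out control replicate 3 gave 0.57 and 20. Of these genes, 10 had been named in earlier results of these data. The other 22 were all higher, with a median of 0.62, 20 at p under 0.05 and 19 above all controls. The whole list was written with those results known, and these 22 were measured in the same libraries. They are therefore not independent support.

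Promoter stretches of 4 of these genes are shown because the CCAAT box and the TTTGAA element, a pair of short motifs, are known from promoters of genes that peak in G2 and M phase. Each line is the 150 bases before the RefSeq start of the gene on GRCm38.p6, written 5′ to 3′ on the strand of the gene. Capitals mark CCAAT or TTTGAA on either strand, so that ATTGG and TTCAAA are the same motifs read from the other strand. The positions are chr11:99024190-99024339 on the minus strand for Top2a, chr19:37376232-37376381 on the plus strand for Kif11, chr15:102296143-102296292 on the plus strand for Espl1 and chr4:44300767-44300916 on the plus strand for Melk.
Top2a: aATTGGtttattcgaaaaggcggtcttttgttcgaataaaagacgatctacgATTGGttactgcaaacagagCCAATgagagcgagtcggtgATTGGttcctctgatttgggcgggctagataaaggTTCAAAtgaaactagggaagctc
Kif11: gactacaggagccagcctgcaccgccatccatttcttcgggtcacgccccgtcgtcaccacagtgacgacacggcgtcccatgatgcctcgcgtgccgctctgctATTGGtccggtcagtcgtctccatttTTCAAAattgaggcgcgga
Espl1: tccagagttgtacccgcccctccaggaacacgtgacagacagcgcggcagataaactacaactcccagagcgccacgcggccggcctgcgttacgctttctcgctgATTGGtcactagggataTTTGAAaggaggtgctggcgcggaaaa
Melk: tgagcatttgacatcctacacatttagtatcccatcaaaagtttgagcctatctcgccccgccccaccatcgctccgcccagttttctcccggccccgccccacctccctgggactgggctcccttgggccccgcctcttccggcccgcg
Within this stretch Top2a had CCAAT 4 times and TTTGAA 1 time, Kif11 and Espl1 had each motif 1 time, and Melk had neither. Over 250 bases before the start, CCAAT on either strand was found for 21 of the 28 mitosis genes that matched a RefSeq window, and TTTGAA for 10 of 28. Over all 27025 gene symbols with such a window, counted in the same way, the shares were 37.5% for CCAAT and 18.3% for TTTGAA. Among DNA replication genes, 15 of 21 matched members had CCAAT and 3 of 21 had TTTGAA. A match is a description of the letters and not evidence of a bound factor.

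Melk, a kinase of dividing cells (chr4:44300876-44364675, plus strand), was measured at 15.6, 18.7 and 16.5 CPM at 30 min and at 9.53, 8.78 and 8.12 CPM in the controls. The lowest library at 30 min was well above the highest control. Its level was 1.92-fold higher, a log2 fold change of 0.94 with a standard error (SE) of 0.21, and edgeR gave an unadjusted p of 0.000479 and an adjusted p of 0.876. Top2a, the topoisomerase that untangles replicated chromosomes (chr11:98992943-99024189, minus strand), was at 81.8, 154 and 63.3 CPM at 30 min and at 53.2, 42.3 and 48.0 CPM in the controls. Here replicate 2 at 30 min stood far above the other 5, and the groups still did not overlap. The log2 fold change of Top2a was 1.06 (SE 0.29), the highest of the list, with an unadjusted p of 0.0029 and the same adjusted p of 0.876 in edgeR.

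Other members showed the same order. Espl1, the separase that cuts the link between sister chromatids, was at 18.9, 18.3 and 14.4 CPM against 11.6, 10.8 and 9.32 CPM, a log2 difference of 0.70 (SE 0.17). Kif11, the motor that pushes spindle poles apart, was at 27.8, 34.9 and 26.6 CPM against 21.4, 18.6 and 17.6 CPM, a log2 difference of 0.63 (SE 0.16). In both genes no library at 30 min reached down to a control. G2e3, a ubiquitin ligase named for its G2 phase expression, was at 11.3, 14.7 and 8.79 CPM against 6.51, 7.0 and 5.93 CPM. Aspm, a spindle pole protein, was at 12.8, 21.3 and 13.4 CPM against 9.74, 9.05 and 7.28 CPM, and Ndc80, a kinetochore subunit, at 7.46, 8.77 and 6.49 CPM against 4.36, 4.04 and 4.31 CPM. Mki67, the common marker of proliferating cells, was at 171, 247 and 158 CPM against 128, 129 and 127 CPM, with a log2 difference of 0.58 (SE 0.22). Overlap between the groups was seen in 3 members: Cdk1, the kinase that starts mitosis, Aurkb, a kinase of chromosome segregation, and Ttk, a checkpoint kinase.

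The level of the mitosis list, as the mean log2 CPM of its genes, was 4.55, 4.86 and 4.38 at 30 min and 4.05, 3.99 and 3.75 in the sensitized controls. It was 4.54, 4.19 and 4.27 in the PBS mice and 4.66, 4.63 and 4.44 at 60 min. At 120 min the 3 libraries spread from 4.08 to 4.72. The sensitized controls were the 3 lowest of the 15 libraries. Against the PBS mice the median log2 fold change of the list was 0.26, with 32 of 32 higher but 2 at an unadjusted p under 0.05, Prc1, a midzone protein of the spindle, and G2e3, beside 1.57% of all genes higher in that comparison. Against 60 min the median was 0.03 and 0 genes had p under 0.05.

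**Figure D2:**
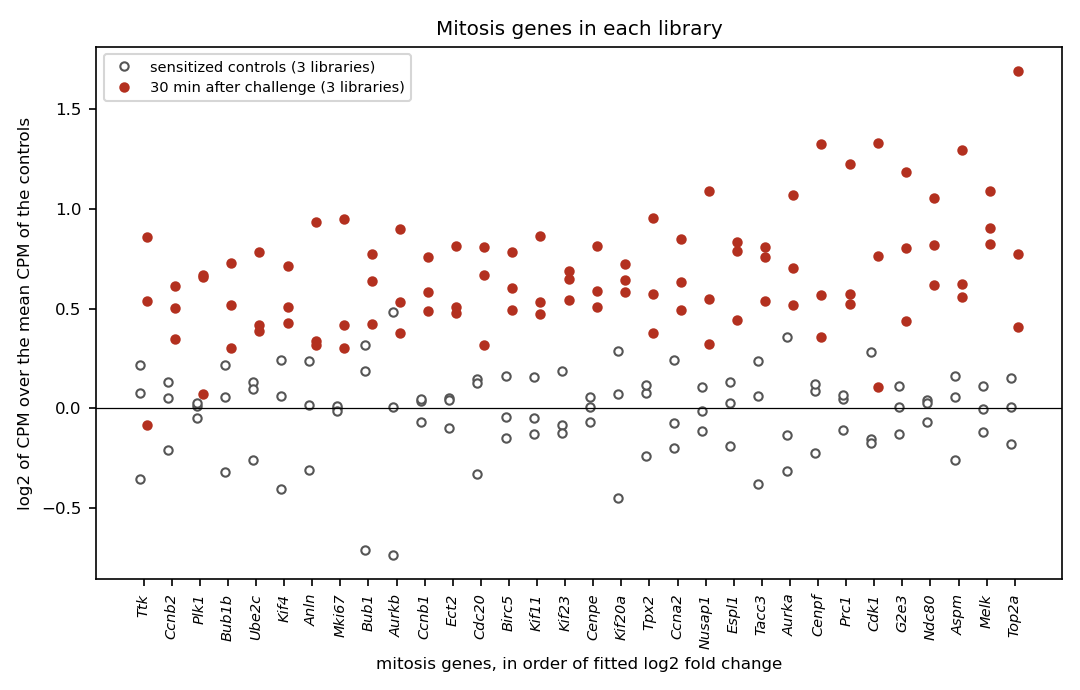
Each mitosis gene (horizontal axis, ordered by fitted log2 fold change) in each library, as log2 of its CPM over the mean CPM of the 3 sensitized controls (vertical axis), with filled points for the 3 libraries at 30 min and open points for the controls. In 29 of 32 genes all filled points lie above all open ones.

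DNA replication genes had a smaller median. Of 26 tested, 20 were higher and 6 lower, with a median of 0.32. At an unadjusted p under 0.05 there were 4, all higher, beside the 2.72% of all genes that were higher. Lig1, the ligase that joins Okazaki fragments, was at 36.5, 47.3 and 34.0 CPM at 30 min and 30.9, 27.1 and 20.3 CPM in the controls, a log2 difference of 0.58 (SE 0.20). Mcm10, a replication initiation factor, was at 20.5, 29.2 and 23.6 CPM against 18.8, 19.3 and 16.1 CPM. The groups of both did not overlap, whereas Pcna, the sliding clamp of the polymerase, was at 112, 95.4 and 104 CPM against 136, 123 and 87.3 CPM. The median was 0.18 without 30 min replicate 2 and 0.26 without control replicate 3, and 0 genes had p under 0.05 in either case. Against the PBS mice the median was 0.11.

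Genes of intestinal stem cells and Wnt signalling stood near the controls. Of 18 tested, 15 were higher and 3 lower, and the median was 0.18. At an unadjusted p under 0.05 there were 2, higher at 30 min, beside 2.72% of all genes. These were Ephb3, a receptor that positions crypt cells, at 27.6, 28.7 and 22.3 CPM against 22.6, 19.7 and 20.3 CPM, and Znrf3, a ligase that removes Wnt receptors, at 10.9, 16.0 and 15.1 CPM against 11.4, 11.9 and 7.98 CPM. Lgr5, the marker of crypt base stem cells, was at 27.4, 34.8 and 28.9 CPM against 29.6, 24.1 and 13.3 CPM. All 3 of these genes overlapped between the groups. Of the 18 genes, 0 lay wholly above the controls, beside 6.49% of all genes, and 1 wholly below, beside 7.84%. The median was 0.03, with 11 higher and 7 lower, without control replicate 3, and 0.07 without 30 min replicate 2, and 0 had p under 0.05 in either case.

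Genes of the digestive brush border were all lower at 30 min. Of 22 listed, 21 were tested, 21 had a negative log2 fold change and the median was -0.36. None passed the adjusted threshold, and 2 had an unadjusted p under 0.05, beside the 2.32% of all genes that were lower. In 10 of 21 all 3 libraries at 30 min lay below the controls, beside 7.84% of all genes. With library totals and no TMM factor this held for 6 of 21, beside 2.49%. Sis, the sucrase-isomaltase that splits table sugar (chr3:72888557-72967863, minus strand), was at 2753, 3476 and 3568 CPM against 5252, 4214 and 4475 CPM, with a log2 fold change of -0.51 (SE 0.23). Ezr, the ezrin that ties the microvillus membrane to actin, was at 629, 613 and 718 CPM against 903, 877 and 744 CPM. Alpi, the intestinal alkaline phosphatase, was at 263, 355 and 337 CPM against 440, 379 and 479 CPM. In each of these 3 genes every library at 30 min was below every control. Lct, the lactase, was at 692, 891 and 646 CPM against 1597, 883 and 1218 CPM, and its groups overlapped. Control replicate 1 was the highest library for Sis, Lct and many other members, and without it the median was -0.23, 20 of 21 were lower and 0 had p under 0.05. It was -0.32 without 30 min replicate 1.

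Nutrient transporters followed a like order, with 13 of 16 lower, 3 higher and a median of -0.31. Slc7a9, a subunit of the transporter for cystine and basic amino acids, was at 107, 102 and 108 CPM against 150, 131 and 122 CPM. Slc46a1, the proton-coupled folate transporter, was at 17.5, 20 and 14.1 CPM against 39.4, 19.9 and 33.6 CPM. These were the 2 transporters with an unadjusted p under 0.05, beside 2.32% of all genes, and Slc46a1 had overlapping groups. Slc5a1, the sodium-glucose transporter, was at 1157, 1470 and 1357 CPM against 2226, 1503 and 1575 CPM, which did not overlap, with an unadjusted p of 0.153 in edgeR. Against the PBS mice the median of the list was -0.22, with 14 of 16 lower. Its mean log2 CPM was 6.26 in PBS replicate 1, below the libraries at 30 min, at 6.49, 6.72 and 6.64.

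Genes of fat absorption and chylomicron assembly were lower in 18 of 19, with a median of -0.42. In 11 of 19 every library at 30 min was below all controls, beside 7.84% of all genes, and with library totals and no TMM factor this held for 5 of 19, with 1 above. The exception was Scarb1, a lipoprotein receptor, at 4.77, 1.96 and 1.95 CPM against 1.74, 1.45 and 1.98 CPM. At an unadjusted p under 0.05 there were 4 genes, all lower, beside the 2.32% of all genes that were lower. Abcg5, which returns plant sterols to the gut lumen, was at 99.0, 122 and 122 CPM against 191, 154 and 156 CPM, a log2 difference of -0.55 (SE 0.19). Fabp1, a fatty acid binding protein, was at 214, 133 and 95.9 CPM against 275, 311 and 223 CPM, a log2 difference of -0.87 (SE 0.33). Both genes were lower in every library at 30 min than in any control. Mogat2 and Dgat2, enzymes that rebuild triglyceride from absorbed fat, had log2 differences of -0.40 and -0.52. The median of the list was -0.36 without 30 min replicate 1, with 2 genes at p under 0.05, and 1 gene was at that level without 30 min replicate 2 or without control replicate 1. Against the PBS mice the median was -0.25, but the mean log2 CPM of the list in PBS replicate 1 was 7.52. That was below the libraries at 30 min, at 7.80, 7.69 and 7.71.

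In fatty acid oxidation and PPARα target genes, 20 of 21 were lower, with a median of -0.24. Of these, 4 had an unadjusted p under 0.05, beside the 2.32% of all genes that were lower. Eci3, an enoyl-CoA isomerase, was at 14.1, 10.6 and 11.2 CPM against 19.3, 19.9 and 24.4 CPM, a log2 difference of -0.82 (SE 0.19), and edgeR gave an unadjusted p of 0.000579 and an adjusted p of 0.876. Acaa1b, a peroxisomal thiolase, was at 11.4, 10.3 and 10.5 CPM against 17, 20.5 and 18.7 CPM. Neither gene overlapped between the groups. Cpt1a, which brings fatty acids into mitochondria, overlapped, at 308, 348 and 375 CPM against 291, 407 and 386 CPM. Without control replicate 2 the median was -0.09, with 17 of 21 lower and 1 at p under 0.05. Against the PBS mice the median was 0.00.

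Genes of drug and xenobiotic metabolism were lower at 30 min in 26 of 26 tested, with a median of -0.42. At an unadjusted p under 0.05 there were 8, beside the 2.32% of all genes that were lower, and 11 of 26 lay below all controls, beside 7.84% of all genes. With library totals and no TMM factor 6 of 26 did, beside 2.49%. Aadac, an esterase of the endoplasmic reticulum (chr3:60025717-60040160, plus strand), was at 106, 103 and 119 CPM against 152, 156 and 153 CPM. The 3 controls were close together and all 3 libraries at 30 min lay clear of them. Its log2 fold change was -0.49 (SE 0.10), with an unadjusted p of 0.000277 and an adjusted p of 0.876 in edgeR. Gstk1, a glutathione transferase of mitochondria and peroxisomes, was at 27.7, 29.4 and 32.3 CPM against 47.9, 42.4 and 42.4 CPM, a log2 difference of -0.57 (SE 0.14). Gsta4, which conjugates products of lipid peroxidation, was at 18.9, 21.7 and 21.5 CPM against 36.9, 32.5 and 28.4 CPM, a log2 difference of -0.66 (SE 0.17). Cyp2c66, a cytochrome P450, was at 12.0, 12.3 and 14.8 CPM against 30.7, 23.3 and 21 CPM, a log2 difference of -0.94 (SE 0.30). None of these genes had a library at 30 min that reached the controls.

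Against the PBS mice the xenobiotic list had a median of -0.18, with 26 of 26 negative and 5 at an unadjusted p under 0.05 (1% of all genes were lower there). Its mean log2 CPM was 5.86, 6.60 and 6.53 in the PBS mice and 5.83, 6.13 and 6.09 at 30 min. PBS replicate 1, an unchallenged mouse, thus lay below 30 min replicates 2 and 3. Cyp3a11, a major drug-metabolising P450, was at 23.7, 39.6 and 23.7 CPM at 30 min. In the sensitized controls it was at 94.5, 32.3 and 27.2 CPM, where control replicate 1 alone was high. Without that control the median of the list was -0.24, with 24 of 26 lower and 5 at p under 0.05. Without 30 min replicate 1 it was -0.33, with 24 lower and 5 at p under 0.05.

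**Figure D3:**
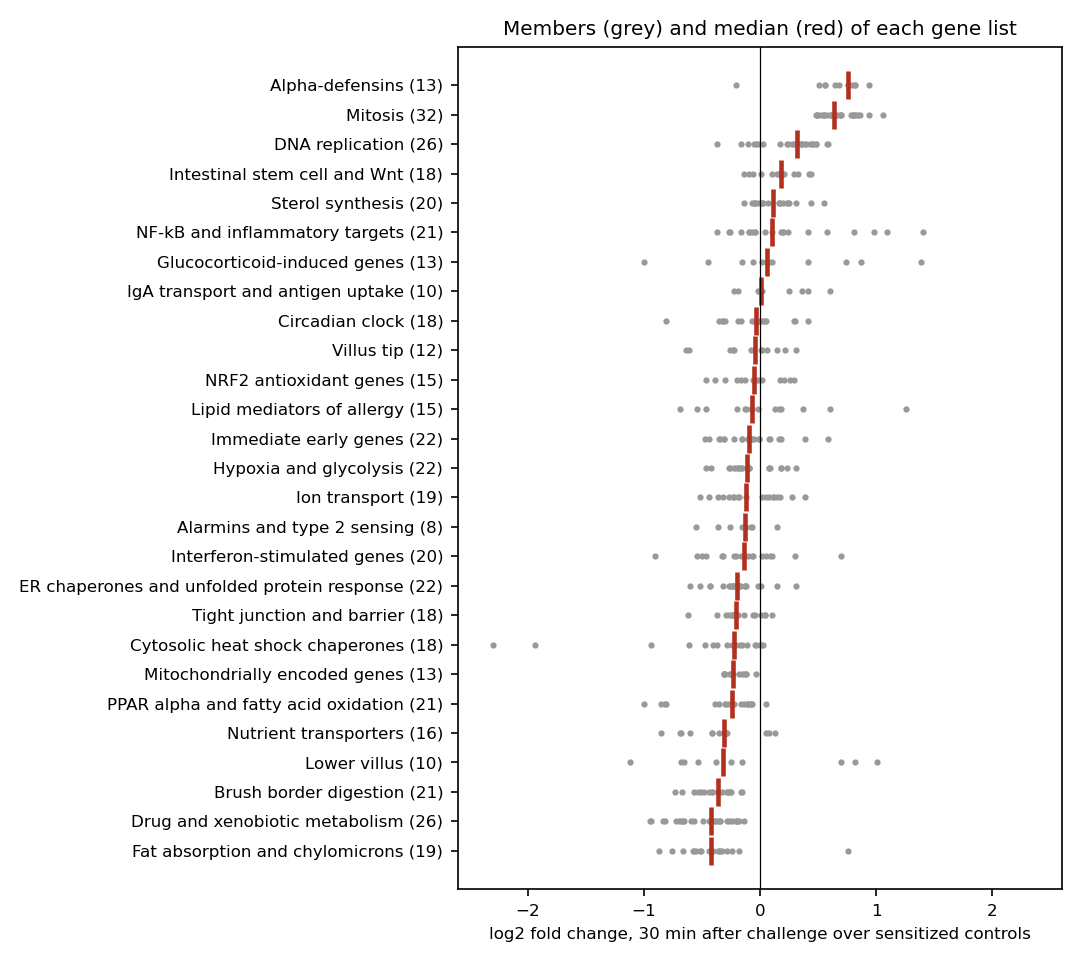
Log2 fold change of every tested member (points) of the gene lists named on the axis, 30 min minus sensitized controls, with a bar at the median of each list and the number of members tested in parentheses. Mitosis members all lie above 0, at 0.48 to 1.06, and the brush border and xenobiotic members all lie below 0. One member, Defa2, lies outside the axis limit of 2.5 and is not drawn.

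Cytosolic heat shock chaperones were lower in 15 of 18, with a median of -0.22. At an unadjusted p under 0.05 there were 6, all lower, beside the 2.32% of all genes that were lower at that level. Promoter stretches of Hspa1a, the inducible HSP70, and Hspa5, the main chaperone of the endoplasmic reticulum (ER), are shown because each holds the element for which its pathway is known. They are the 150 bases before the RefSeq start on GRCm38.p6 at chr17:34972157-34972306 on the minus strand and chr2:34771940-34772089 on the plus strand. Capitals mark GAANNTTC, a core of the heat shock element, in Hspa1a, and the ER stress element in Hspa5, which is CCAAT and CCACG with 9 bases of any kind between them.
Hspa1a: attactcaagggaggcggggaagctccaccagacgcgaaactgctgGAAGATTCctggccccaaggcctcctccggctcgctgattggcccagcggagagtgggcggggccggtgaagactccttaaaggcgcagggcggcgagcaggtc
Hspa5: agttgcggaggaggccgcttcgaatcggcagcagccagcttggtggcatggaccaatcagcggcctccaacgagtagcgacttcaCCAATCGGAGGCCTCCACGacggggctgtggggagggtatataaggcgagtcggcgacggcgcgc
Searched on both strands over 250 bases, GAANNTTC, which reads the same on both, was found for 5 of 13 matched heat shock genes and for 7.73% of all gene symbols with a window. The ER stress element, which contains CCAAT, was found for 7 of 18 matched ER genes and for 0.13% of all.

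Dnajb1, the HSP40 partner of HSP70, was at 136, 103 and 111 CPM against 150, 175 and 212 CPM, a log2 difference of -0.61 (SE 0.16) with an unadjusted p of 0.00133 in edgeR. Hsph1, an HSP110 that helps reset HSP70, was at 46.1, 49.0 and 55.2 CPM against 125, 54.1 and 110 CPM. Hspa1a was at 26.8, 41.8 and 17.5 CPM against 51.3, 55.7 and 318 CPM, and Hspa1b at 44.3, 67.4 and 41.4 CPM against 99.9, 88.3 and 400 CPM. These are near-identical gene copies, so the split of reads between them is uncertain, and control replicate 3 alone gave the largest values of both. Hsp90aa1, the inducible HSP90, was at 319, 332 and 347 CPM against 419, 374 and 527 CPM, while Hsp90ab1, its constitutive relative, was at 1196, 1267 and 1294 CPM against 1255, 1222 and 1352 CPM. Only the inducible form was free of overlap, and the difference between the 2 forms was not tested. Averaged over the list, log2 CPM was 6.50, 6.54 and 6.49 at 30 min, 6.89, 6.71 and 7.15 in the sensitized controls, 6.83, 6.75 and 6.82 in the PBS mice and 6.46, 6.25 and 6.12 at 60 min. All 3 libraries at 30 min lay below the 6 unchallenged ones and above the 3 at 60 min. Without 30 min replicate 1, or without control replicate 3, the count at p under 0.05 was 3.

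ER chaperones and the unfolded protein response were lower in 19 of 22, with a median of -0.20. At an unadjusted p under 0.05 there were 4, all lower, beside the 2.32% of all genes that were lower. That count was 2 when 30 min replicate 2, 30 min replicate 3, control replicate 1 or control replicate 3 was left out. Hspa5 was at 1042, 1110 and 1063 CPM against 1478, 1325 and 1530 CPM, a log2 difference of -0.43 (SE 0.14). Dnajb9, a co-chaperone of Hspa5, was at 59.3, 53.1 and 70.0 CPM against 92.0, 77.9 and 92.0 CPM, a log2 difference of -0.52 (SE 0.16). Neither gene overlapped between the groups. Herpud1, a component of ER-associated degradation, was at 280, 341 and 248 CPM against 337, 252 and 273 CPM, and Atf4, the transcription factor of the integrated stress response, at 362, 308 and 397 CPM against 401, 411 and 389 CPM, and both overlapped.

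Paneth cell genes had mostly positive log2 fold changes at 30 min. Of 20 α-defensins listed, 13 were tested, 12 were higher and 1 lower, with a median of 0.76. At an unadjusted p under 0.05 there were 6, all higher, beside the 2.72% of all genes that were higher. In 2 of 13 all 3 libraries at 30 min lay above the controls, beside 6.49% of all genes. Defa3 was at 6836, 6064 and 3885 CPM against 3488, 2485 and 3531 CPM, a log2 difference of 0.82 (SE 0.23) with no overlap. Defa30 was at 3393, 2887 and 1643 CPM against 1655, 1282 and 1734 CPM, where 30 min replicate 3 fell within the controls. Defa2 was at 14.6, 9.40 and 35.1 CPM at 30 min and at 0 in all 3 controls. The α-defensins are near-identical copies among which the quantification divides reads, so the value of any single member is uncertain. Of 11 other Paneth genes tested, 11 were higher, with a median of 0.62, but only 1 of 11 lay above all controls. Their mean log2 CPM was 7.02, 7.01 and 6.22 at 30 min and 6.38, 6.18 and 6.35 in the controls. In that mean, 30 min replicate 3 fell within the controls. Itln1, the lectin intelectin, was at 1480, 2036 and 1097 CPM against 1086, 878 and 1058 CPM, and it was the 1 gene at p under 0.05. Without 30 min replicate 1 the medians were 0.46 for the defensins, with 2 at p under 0.05, and 0.37 for the other Paneth genes, with 9 of 11 higher and 0 at that level. Leaving out 30 min replicate 2 gave the other Paneth genes a median of 0.24, again with 9 of 11 higher. Without control replicate 2 the defensins with p under 0.05 numbered 1. Against the PBS mice the medians were 0.38 and 0.26.

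Goblet cell genes were lower in 13 of 15, with a median of -0.23, which ran from -0.44 without 30 min replicate 1 to -0.08 without 30 min replicate 3. Clca1, a secreted mucus-processing protein, was at 1090, 705 and 734 CPM against 901, 1740 and 1610 CPM, a log2 difference of -0.75 (SE 0.26), and was the 1 member at p under 0.05. Muc2, the main mucin, was at 957, 791 and 546 CPM against 586, 988 and 1158 CPM. Both genes overlapped between the groups. Enteroendocrine genes were higher in 8 and lower in 10 of 18, with a median of -0.08, and in 3 and 15, with a median of -0.44, when 30 min replicate 1 was left out. Of 16 tuft cell genes 11 were tested, with a median of 0.13 and 0 at p under 0.05.

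Signals that epithelium is known to send in allergy had small median differences from the controls. Of 18 alarmin and type 2 sensing genes, 8 were tested, 7 were lower, the median was -0.13 and 0 had an unadjusted p under 0.05. In 2 of 8 all 3 libraries at 30 min lay below the controls, beside 7.84% of all genes. With library totals and no TMM factor 0 of 8 did. Against the PBS mice 8 of 8 were lower, with a median of -0.20. Il33 was at 16.4, 11.9 and 19.6 CPM against 37.6, 13.6 and 18.9 CPM, a log2 difference of -0.55 (SE 0.45) with overlapping groups. Tslp was at 0 in all 6 libraries, and Il25 reached at most 0.0539 CPM. The goblet cell protein Retnlb and the decoy receptor Il13ra2 were each at 0.12 CPM in 30 min replicate 1 and at 0 in the other 5. Il4ra, the receptor chain for Il4 and Il13, was at 96.7, 74.1 and 103 CPM against 85.1, 94.9 and 123 CPM. Lipid mediator genes had a median of -0.07 over 15 tested of 19. Ptgs2, the inducible cyclooxygenase, was at 8.22, 1.26 and 2.10 CPM against 1.85, 0.916 and 2.12 CPM, so that 30 min replicate 1 alone was high. Alox5ap, the partner of 5-lipoxygenase, was at 0.757 to 2.97 CPM against 1.08 to 1.48 CPM.

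Mast cell markers were sparse. Of 12 listed, 5 were tested, 3 of them higher, with a median of 0.00 and 0 at an unadjusted p under 0.05. Tpsab1, a tryptase, and Cma1, a chymase, were at 0 in all 6 libraries. Mcpt1, the chymase of mucosal mast cells, was at 8.18, 3.66 and 5.54 CPM against 1.90, 15.0 and 7.56 CPM, and Mcpt2 at 3.97, 1.77 and 1.60 CPM against 0.974, 4.79 and 3.60 CPM. For both proteases the controls spread wider than the 30 min libraries. Hdc, the enzyme that makes histamine, was at 1.64, 1.07 and 1.60 CPM against 0.461, 1.02 and 0.989 CPM, which did not overlap, with a log2 difference of 0.81 (SE 0.46). Pigr, the receptor that carries IgA into the lumen, was at 2334, 2212 and 3000 CPM against 2173, 2313 and 3094 CPM, a log2 difference of -0.01 (SE 0.21).

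Immediate early genes, which stimulated cells induce within minutes, were lower in 16 of 22, with a median of -0.09 and 0 at an unadjusted p under 0.05. When 30 min replicate 1 was left out, 11 were higher and 11 lower, with 1 at that level, and the median was -0.03. Egr1 was at 1171, 1928 and 1185 CPM against 1398, 1367 and 1302 CPM, a log2 difference of 0.08 (SE 0.18). Fos was at 1380, 1614 and 1352 CPM against 1638, 1402 and 1349 CPM, a log2 difference of -0.01 (SE 0.17). Both groups overlapped, and the genes were abundant in every library, unchallenged mice included. Tissue was kept at room temperature for 75 min in all groups before RNA was taken. Scaling was compared on the plain difference in mean log2 CPM, with 0.5 CPM added, and not on fitted fold changes. On that measure, library totals without a TMM factor changed the sign of the median of this list. The medians of the NRF2, lipid mediator, clock, ion transport, villus tip and mast cell lists did the same. The mast cell median went from -0.01 to 0.10, and the hypoxia list then had 11 higher and 11 lower.

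NF-kB and inflammatory targets were higher in 12 of 21, with a median of 0.10, but in 4 of 21, with a median of -0.10, when 30 min replicate 1 was left out. The 1 member with an unadjusted p under 0.05, Nfkb2, a subunit of the pathway, was at 49.3, 34.8 and 47.7 CPM against 55.7, 58.3 and 57.0 CPM. Interferon-stimulated genes had a median of -0.14 over 20 tested, with Irf7 and Rsad2 at p under 0.05 and lower. That median rested on single libraries: it was -0.51 (1 higher, 19 lower) without 30 min replicate 1 and 0.12 (14 higher, 6 lower) without control replicate 3. Irf7, a regulator of interferon genes, was at 39.2, 22.9 and 27.4 CPM against 37.6, 34.9 and 54.5 CPM. Its groups overlapped. Tight junction genes were lower in 14 of 18, with a median of -0.21. Cldn15, the claudin that forms sodium channels between enterocytes, was at 385, 440 and 425 CPM against 525, 479 and 499 CPM, without overlap.

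Other pathways had few members at an unadjusted p under 0.05, where 2.72% of all genes were higher and 2.32% lower. In the NRF2 antioxidant list, 2 of 15 were, both lower: Gclm, a subunit of the enzyme that starts glutathione synthesis, was at 45.1, 47.4 and 47.7 CPM against 77.1, 51.9 and 63.6 CPM, and Nfe2l2, the NRF2 gene itself, had overlapping groups. Ion transport (19 tested), hypoxia and glycolysis (22) and clock genes (18) had 0. Ddit4, an mTOR inhibitor induced by glucocorticoids and other stresses, was at 85.5, 118 and 47.3 CPM against 49.2, 47.2 and 40.5 CPM, and was the 1 of 13 glucocorticoid-induced genes at that level. In the sterol synthesis list, 14 of 20 genes were higher, with a median of 0.11, and Mvk, the mevalonate kinase, was at 21.1, 31.7 and 19.8 CPM against 17.9, 17.5 and 17.9 CPM, without overlap and with an unadjusted p of 0.0635 in edgeR. Villus tip genes stood at 6 higher and 6 lower of 12, with a median of -0.04. The 2 with an unadjusted p under 0.05 were Slc17a4, a phosphate and urate transporter, and Creb3l3, a regulator of lipid genes, and both were lower without overlap, at 30.6, 37.2 and 39.0 CPM against 50.4, 58.3 and 57.4 CPM and at 233, 210 and 240 CPM against 359, 354 and 327 CPM. In the lower villus list, Reg3a, an antimicrobial lectin, was at 58.6, 57.8 and 56.9 CPM against 106, 83.4 and 82.8 CPM, a log2 difference of -0.65 (SE 0.17).

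**Figure D4:**
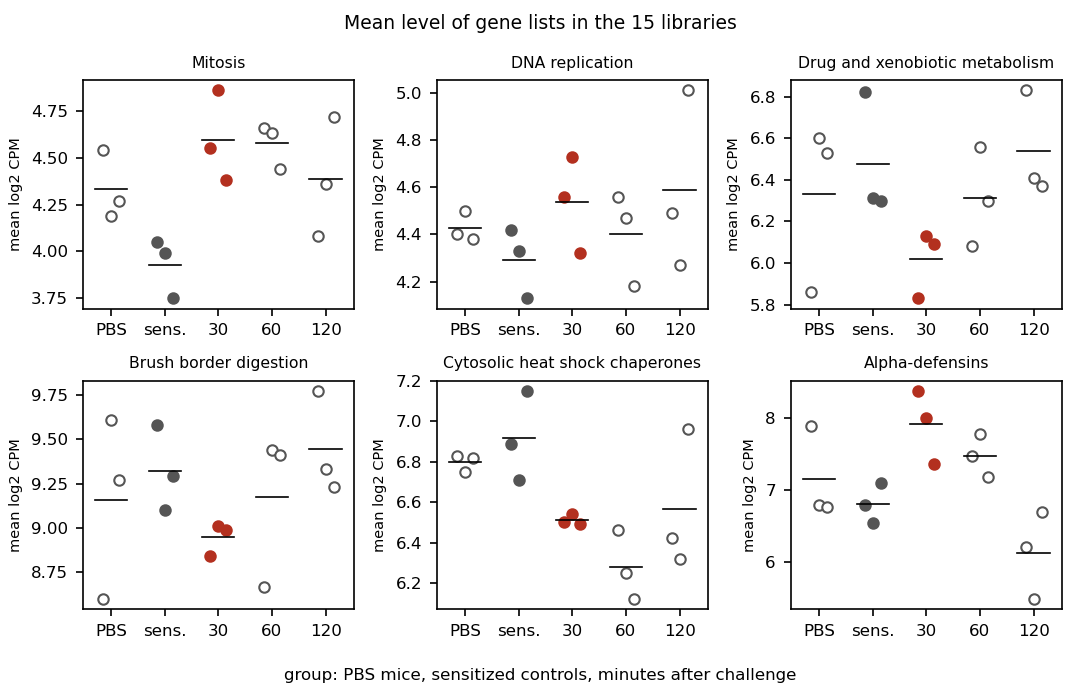
Mean log2 CPM (vertical axes) of 6 gene lists in the 15 libraries (points) by group, with a line at each group mean. The heat shock level is 6.50, 6.54 and 6.49 at 30 min, below the 6 unchallenged libraries, and the xenobiotic level is 5.83, 6.13 and 6.09 against 6.82, 6.31 and 6.30 in the sensitized controls.

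Markers of cells other than epithelium varied between libraries. Red blood cell genes were lower in 5 of 5 tested, with a median of -2.05. All 5 lay below all controls, beside 7.84% of all genes. Hbb-bt, a β-globin (chr7:103812524-103813996, minus strand), was at 3.73, 5.05 and 8.94 CPM against 21.6, 25.9 and 30.5 CPM, and Hba-a1, an α-globin, at 8.38, 13 and 24.2 CPM against 63.7, 79.8 and 78.0 CPM. No library at 30 min came near a control for either gene. The summed erythroid level covers 8 genes, tested or not. It was 19.0, 29.5 and 54.7 CPM at 30 min, 126, 152 and 180 CPM in the sensitized controls, 169, 74.4 and 152 CPM in the PBS mice and 14.5, 40.0 and 139 CPM at 60 min. The list's median against the PBS mice was -1.90. Globins are divided among near-identical copies, and whether the blood left in the isolates bears on the other lists was not tested.

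The summed T cell and intraepithelial lymphocyte level, over 18 tested markers, was 300, 48.3 and 223 CPM at 30 min and 84.7, 93.9 and 310 CPM in the controls. The summed MHC class II level, over 8 markers, was 835, 255 and 705 CPM against 209, 113 and 880 CPM. In both lists 30 min replicate 2 was low and control replicate 3 high within their groups. Macrophage and dendritic cell markers were higher in 14 of 14, with a median of 0.61, which was 0.04 to 0.99 when 1 library was left out. Lyz2, a lysozyme of myeloid cells, was at 18.1, 7.95 and 7.54 CPM against 5.33, 5.01 and 4.59 CPM, and was the 1 marker at an unadjusted p under 0.05. All 13 stromal markers, tested or not, summed to 276, 7.51 and 19.7 CPM against 10.5, 16.0 and 24.7 CPM. The median of the 7 tested, 4.50, became -0.33 without 30 min replicate 1. The endothelial median of 1.13 became 0.08 and that of smooth muscle, nerve and glia went from 2.21 to -0.20. The medians of the mitosis, brush border and xenobiotic lists kept their sign without that library.

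**Figure D5:**
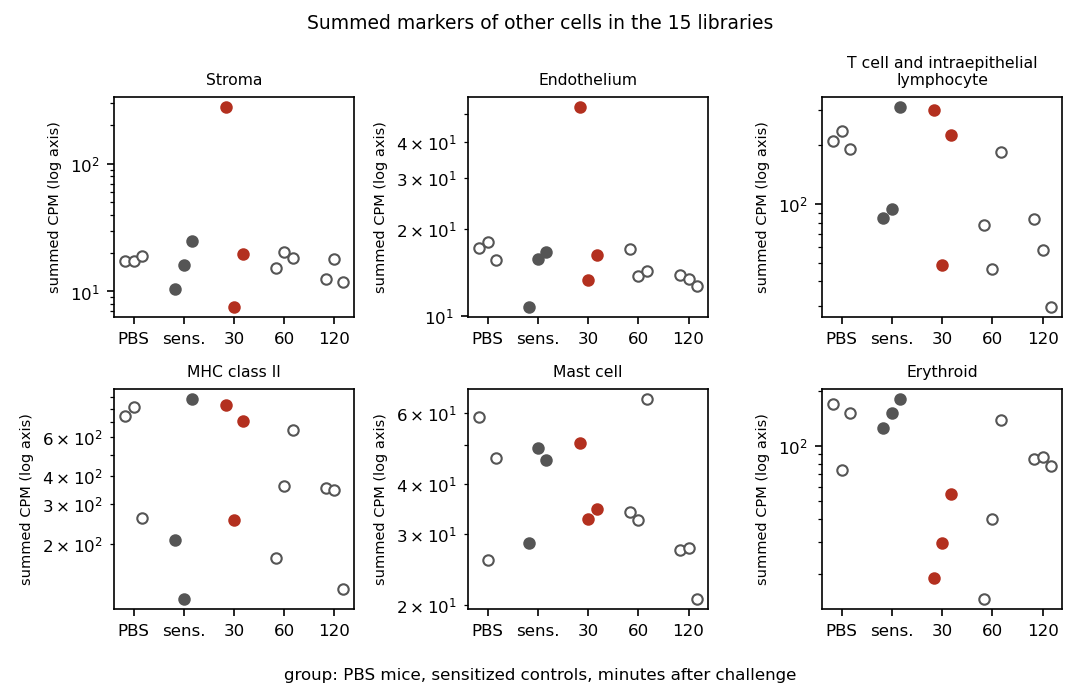
Summed CPM (vertical log axes) of 6 marker lists in the 15 libraries (points), by group. Stromal markers are high in 1 library at 30 min (276 CPM), and erythroid markers are at 19.0, 29.5 and 54.7 CPM at 30 min against 126, 152 and 180 CPM in the sensitized controls.

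Genes with a mean of at least 2 CPM were ranked by p, leaving out numbered gene models and antigen receptor segments. The lowest p-values of this ranking belonged to genes of several lists. Abhd3, a phospholipase, was at 39.7, 37.1 and 36.9 CPM against 55.9, 55.3 and 61.6 CPM, the lowest p of the ranking (log2 difference -0.60, SE 0.12, unadjusted p 0.0001, adjusted p 0.876 in edgeR). Bco2, which cleaves carotenoids, was at 46.6, 51.9 and 59.6 CPM against 84.6, 79.9 and 76.6 CPM, a log2 difference of -0.61 (SE 0.15). Arl14, a small GTPase, was at 8.34, 6.44 and 8.34 CPM against 14.9, 15.3 and 12.1 CPM. Together with Aadac, Melk, Eci3, G2e3, Espl1, Gstk1 and Kif11 these make the 10 genes of lowest p in the ranking, none with overlap between the groups. Of the 10, 4 are mitosis genes: Melk, G2e3, Espl1 and Kif11. Earlier results of these data had named all 4 before the list was written, so their place here is no independent support for the list.

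Genes with an unadjusted p under 0.05, no overlap and a mean level of 5 CPM or more were counted. Numbered gene models and antigen receptor segments were left out. Of the genes counted, 211 were higher and 243 lower. The largest positive log2 differences after Defa2 were in Timp3, an inhibitor of matrix metalloproteinases (1.19), Lyz2 (1.17), Top2a (1.06) and Melk (0.94). Samd5 (0.90), Crybg3 (0.88), Aspm (0.86), Itih5 (0.84), Ndc80 (0.84), the magnesium channel Trpm6 (0.84) and G2e3 (0.83) followed. The largest negative ones were in Hspa1a (-2.30), Hba-a1 (-2.28), Hbb-bt (-2.14), Hbb-bs (-2.05) and Hspa1b (-1.94). After these came Gcat, a mitochondrial enzyme of threonine breakdown (-1.67), Cyp2c66 (-0.94), the hexose transporter Slc2a7 (-0.93), Trim38 (-0.93), Pax8 (-0.92), the lipid droplet protein Cidec (-0.91) and Ifit1bl2 (-0.87). None passed the adjusted threshold in edgeR.

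Other methods gave few calls. In limma-voom 0 genes passed, with 719 at an unadjusted p under 0.05. DESeq2 called 6 genes: Abhd3 at a log2 difference of -0.596 (adjusted p 0.00717), Aadac at -0.479 (adjusted p 0.00685), and Defa2, Rps12-ps3, Gm10163 and Gm37385, each at 0 in all libraries of 1 group. Abhd3 and Aadac have close replicates and are also the 2 genes of lowest p in the edgeR ranking given above. Against the PBS mice edgeR called 0 genes, with 385 at an unadjusted p under 0.05 (235 higher, 1.57%, and 150 lower, 1%) and a lowest adjusted p of 0.999. Against 60 min it also called 0, with 667 at an unadjusted p under 0.05 and a lowest adjusted p of 0.863.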

How the data were processed

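RNA of jejunal epithelium (polyadenylated, paired reads of 151 bp) was quantified per transcript by the authors: per the submitters' processing notes with cutadapt 1.18, Salmon 1.2.1 and the mm10 build. Which transcript annotation they used is not stated. The deposited tables hold the estimated count of each of 139058 transcripts, its TPM (a length-scaled share, used here only as a weight) and its length and effective length in bases, per the file headers. Sums per gene used GENCODE M21; 1115 transcripts, 0.374% to 0.602% of counts, matched no gene and were left out. Rounded sums of 52844 genes entered edgeR 4.0.16 in R 4.3.3 (TMM, filterByExpr, quasi-likelihood test, 10 residual degrees of freedom, common biological coefficient of variation 0.26), fitted once over the 15 libraries. CPM uses TMM library sizes. Adjusted p-values are Benjamini-Hochberg over the 14968 genes kept of 28797 with any count, with a threshold of 0.05. limma 3.58.1 and DESeq2 1.42.0 were alternatives. The model was tested on simulated data.

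Named genes were the 10 of lowest p with a mean of at least 2 CPM, the 12 largest differences each way among non-overlapping genes with p under 0.05 and at least 5 CPM, up to 6 members of each list by p, genes called by any alternative, and a fixed set of allergy genes; further list members are given as examples and were chosen after their values were seen. Numbered gene models (Gm and Rik symbols) and antigen receptor segments were left out of the 10 of lowest p and of the 12 largest differences each way. The members and lists were chosen with earlier results of these data known. The library totals limit the precision of low genes, and no interval is given for them. Promoter windows are from RefSeq (GRCm38.p6), matched by symbol.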

Additional observations from a re-analysis of the deposited data

How the results depend on the processing

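Alternatives were DESeq2 size factors, no filter or a stricter one (at least 2 CPM in 3 libraries), DESeq2, limma-voom, a fit of only the 6 libraries, library sizes without mitochondrially encoded genes, an offset for transcript length, leaving out each replicate, and PBS mice as the control group. The count of genes past the threshold was 0 in all but 2 of these. DESeq2 gave 6 genes against the sensitized controls, 4 against PBS mice and 5 against 60 min. Leaving out 1 replicate gave 0 to 1 genes in each of these 3 comparisons, and 1 only without 30 min replicate 1. Against the sensitized controls that gene was Abhd4 (log2 fold change -3.37, adjusted p 1.49e-05 in edgeR). Genes at an unadjusted p under 0.05 numbered 1146 without a filter, where more genes were tested, and 592 to 806 with 1 replicate left out. With only the 6 libraries fitted they numbered 1111 of 13944 tested, 492 higher and 619 lower. The main fit had 755 of 14968, with 407 higher and 348 lower. In limma-voom 336 were higher and 383 lower, so neither the count nor its direction was stable. No paired analysis was possible because the replicate numbers only name libraries.

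Of 43 list medians, 8 changed sign with PBS mice as controls and 7 without 30 min replicate 1. Single genes that changed sign with PBS mice were Ptgs2 (-0.25), Marveld3 (0.00), Tnfsf13 (-0.16), Sst (0.48), Trac (-0.21), Gata2 (-0.16), Il1r2 (-0.45) and Fos (0.01). With the length offset they were Mmp9 (-0.25), Fos (0.00) and Alox5ap (-0.22). Pigr, at -0.01, was 0.00 with DESeq2 size factors, in DESeq2, with only the 6 libraries and without mitochondrial genes, and 0.01 without a filter. Over the fits with 1 replicate left out, these genes crossed 0: Il1r2 (-0.52 to 1.24), Fn1 (-0.29 to 3.59), Dcn (-0.33 to 11.09), Sparc (-2.50 to 5.12), Col1a2 (-0.06 to 5.61), Col3a1 (-4.07 to 5.66), Plvap (-1.79 to 5.70), Tagln (-0.06 to 2.72) and Des (-1.72 to 3.51), each lowest without 30 min replicate 1. Fos (-0.09 to 0.08), Egr1 (-0.20 to 0.21), Pigr (-0.15 to 0.16), Mcpt1 (-0.96 to 0.32), Mcpt2 (-0.88 to 0.13), mt-Co1 (-0.47 to 0.02) and mt-Cytb (-0.47 to 0.08) did so as well. The cause was not tested. With 3 libraries a group, differences smaller than the replicate spread were not detectable.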

Other observations

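Abhd4, a hydrolase of lipid metabolism, was at 34.1, 2.90 and 3.84 CPM at 30 min and at 35.5, 33.2 and 37.2 CPM in the sensitized controls. Its main transcript, ENSMUST00000041197, had 0 reads in 30 min replicates 2 and 3 and up to 668 in the other libraries. A screen for the same pattern, at least 20 CPM in 10 or more libraries but under 10 CPM and under 20% of the gene's median in 2 or more libraries at 30 min and in 0 controls, covered 6068 genes and found 1, Abhd4. Of the genes screened, 11 were that low in at least 1 library of any group. The gene and the pattern of the screen were chosen after the values of Abhd4 were seen, so its being found was fixed in advance. What sets 30 min replicates 2 and 3 apart was not tested.

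Genes encoded in mitochondria were lower in 13 of 13 tested at 30 min, with a median of -0.23, and 0 had an unadjusted p under 0.05 in edgeR. The cytochrome oxidase gene mt-Co1 was at 31115, 39261 and 40098 CPM at 30 min and at 38140, 34279 and 64601 CPM in the controls, so control replicate 3 alone stood high. Without that control 12 of 13 were higher at 30 min, with a median of 0.08. Reg3b and Reg3g, lectins that act on bacteria near the epithelium, were highest in 30 min replicate 1: Reg3b was at 4052, 800 and 1297 CPM against 788, 932 and 1328 CPM, and Reg3g at 1910, 337 and 665 CPM against 358, 466 and 822 CPM. The same library held the stromal markers.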
